A study of Mus musculus with 24 samples.

Results

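The enzymes of central carbon metabolism described here were chosen by gene symbol from a list of 52 genes in 3 pathways. Glycolysis with its entry and branch points has 20 listed genes, the pentose phosphate pathway 7, and the pyruvate dehydrogenase complex, the tricarboxylic acid (TCA) cycle and the malate-aspartate enzymes together 25. A transcript was counted for 50 of the 52 symbols, with 51 transcripts in all, since Aldoa is listed with a main and a minor transcript; Ldha and Ldhb were not analysed here. These 51 stand beside 12176 transcripts that all RNA-seq tables share and 10568 that all ribo-seq tables share. The genes were taken by symbol and not by a measured value, though the list was drawn up with earlier results of these data known. All 51 transcripts passed the filter in every comparison. Mouse neuroblastoma N2a (Neuro-2a) cells were compared in 4 conditions. The cells labelled ctrl (genotype WT) had received an empty Cas9 vector, and the cells labelled KO had received Cas9 vectors with guides against 3 exons of Eif4e3. Both went through rounds of puromycin selection, and no step of cloning single cells is described. Each was given 250 nM Torin1 in DMSO or DMSO alone for 2 h, in high-glucose medium without pyruvate. RNA-seq was used from 3 libraries per condition and ribo-seq from 3 per condition except ctrl DMSO with 2, because the second ctrl DMSO footprint library is not analysed here.

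Glycolysis splits glucose into pyruvate in the cytosol and yields ATP and NADH. The pentose phosphate pathway branches from its first intermediate, and its oxidative enzymes make NADPH while its non-oxidative enzymes interconvert sugar phosphates and supply ribose for nucleotides. Pyruvate dehydrogenase and the TCA cycle oxidize pyruvate in mitochondria, and the malate-aspartate enzymes move reducing equivalents between cytosol and mitochondria. Proliferating tumour cells are known for high glycolytic flux. The kinase mTOR, which Torin1 inhibits in both of its complexes, controls cap-dependent translation through the eIF4E-binding proteins and is known to promote glycolytic and pentose phosphate gene expression. eIF4E3 is a member of the eIF4E family of cap-binding proteins.

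The RNA-seq libraries held 17047795 to 28910907 counts and the ribo-seq libraries 669010 to 5284909, with ctrl DMSO replicate 3 the shallowest. Eif4e3 mRNA was at 12.0 to 18.2 CPM (counts scaled to library size, with TMM factors) in ctrl DMSO and at 2.89 to 5.00 in KO DMSO, without overlap, and some Eif4e3 reads and footprints remained in every KO library. Of 13 sympathoadrenal and neuronal markers, 10 were in the RNA-seq tables, all with a median over 1 CPM, and their summed level was 2218 to 2746 CPM in ctrl DMSO and 1893 to 2017 in KO Torin1. The 5 marker lists of other cell types had 1 gene each in the tables, at 4.58 CPM or less. Below, mRNA and footprint values are TMM-scaled CPM. Translational efficiency (TE) is the ratio of footprint CPM to mRNA CPM of the same condition and replicate number. A member was called where the p-value of edgeR's quasi-likelihood test, adjusted over all transcripts tested by the Benjamini-Hochberg method, was under 0.05. Fold changes are on the log2 scale with their SE. Ribo-seq and RNA-seq values are relative to the rest of a library, so a loss of footprints shared by most transcripts is not visible in them, and fewer cells and less RNA per cell cannot be told apart.

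Per kilobase of CDS, the members spanned a wide range of levels in ctrl DMSO. The mRNA of Aldoa, the aldolase of most tissues, was highest with 3003 ± 555 CPM per kb (SD, n = 3), followed by the enolase Eno1 with 1621 ± 246. The succinate dehydrogenase subunit Sdhb stood at 1345 ± 199 and the malate dehydrogenase Mdh2 at 1252 ± 172, which do not differ beyond their spread, nor does Sdhb from Eno1. At the low end were the glucose transporter Slc2a1 with 19.8 ± 1.18 CPM per kb and the brain aldolase Aldoc with 7.88 ± 1.16. In footprints per kb, Gapdh (1679 ± 3.27, n = 2), the aspartate aminotransferase Got2 (1424 ± 53.4), the pyruvate kinase Pkm (1406 ± 97.9) and Aldoa (1374 ± 1.48) led. Got2 and Pkm, and Pkm and Aldoa, lay within each other's spread. The phosphofructokinase subunits were ordered Pfkp (286 ± 15.4 CPM per kb in mRNA), Pfkl (186 ± 21.0) and Pfkm (104 ± 10.7), and hexokinase Hk1 (178 ± 17.3) stood above Hk2 (26.0 ± 5.60). The median TE of the members in ctrl DMSO was 0.914 for glycolysis, 0.903 for the pentose phosphate pathway and 1.14 for the TCA group, against 0.920 over 10338 transcripts with an mRNA level over 1 CPM.

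Some of these genes have near-identical copies, and the authors removed reads that mapped to pseudogenes. The part of this in the levels was not tested, and levels and TE of Gapdh, Pgam1, Aldoa and Eno1 are to be read as uncertain. Gapdh mRNA was at only 61.5 ± 10.2 CPM (SD, n = 3) in ctrl DMSO, and its TE was the highest among the members, 30.0 ± 3.46 (n = 2). Pgam1 was next with 3.81 ± 0.692. Eno1b, a copy of Eno1, held 1550 ± 128 CPM of footprints in ctrl DMSO (n = 2), against 1504 ± 72.3 for Eno1 itself. The aldolase copies Aldoart1 and Aldoart2 held 185 ± 1.94 and 118 ± 7.18 CPM of footprints in ctrl DMSO. In ctrl Torin1 they held 97.3 ± 3.28 and 57.7 ± 7.57 CPM (n = 3).

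The members do not share a pyrimidine-rich start in the annotation. mRNAs whose translation depends most on mTOR commonly begin with a 5′ terminal oligopyrimidine (TOP) tract, a C followed by a run of C and T. In GENCODE release M21 (GRCm38), 1 of the 51 member transcripts, Sdha, begins with a run of at least 5 pyrimidines (1.96%), against 516 of 12282 annotated transcripts (4.20%). The median 5′ TL (transcript leader) length was 181 nt for glycolysis, 83 nt for the pentose phosphate pathway and 116 nt for the TCA group, against 172 nt over all transcripts, and the median GC content of the 5′ TL was 65.2%, 65.7%, 63.3% and 64.4%. RefSeq (GRCm38.p6) gives a single start for 38 of the 50 member genes. The window of 20 bases before to 10 bases from the start is shown for those of them whose TE was called lower with Torin1 in both ctrl and KO, and for Hk2, whose TE was called higher in KO. The windows are written 5′ to 3′, capitals mark the longest pyrimidine run, and the last 10 bases are those from the annotated start on.
Gpi1 (chr7:34230327-34230356, - strand): cggggCCggaggcggggcggggtcggacgc
Gapdh (chr6:125165764-125165793, - strand): gggTCCaaagagagggaggaggggaaatga
Pgls (chr8:71592164-71592193, + strand): aggcgcactggcgtactggCCTCTgccggg
Tkt (chr14:30549111-30549140, + strand): ccacctccgccccgCCCCCCatgggcgggt
Cs (chr10:128337707-128337736, + strand): ggcgggctcaagTTTCgggcagagggcggg
Idh3b (chr2:130284442-130284471, - strand): ccacgaccgcgctcgCTTCCggcgtcactt
Hk2 (chr6:82774445-82774474, - strand): gcagCCCCTCaataagccacattgttgcac
In the window of Pgls a run of 5 pyrimidines spans the RefSeq start. A run of 5 in Idh3b and of 6 in Tkt ends at the base before it, and in Gpi1 no run is longer than 2. A run of at least 7 pyrimidines is in the window of 4 of the 38 members (10.5%) and of 6297 of 32851 RefSeq starts (19.2%). None of the 6 pentose phosphate genes with a single start has one. These are letters at annotated starts, which can differ from the starts used in these cells, and windows of 30 bases on the coding strand only. The counted transcript of some of these genes has another start in GENCODE. For Gapdh (chr6:125166467) and Idh3b (chr2:130284547) it lies outside the printed window. For Pgls (chr8:71592176) and Cs (chr10:128337734) it lies inside the window, at another base than the RefSeq start.

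Torin1 lowered the footprints of many of these enzymes and raised the footprints of none under TMM scaling. In ctrl, 17 of the 51 members were called lower and 0 higher, where 9.93% of the 10693 transcripts tested were called lower and 5.69% higher. In KO, 34 members were called lower and 0 higher, where 22.1% of 10822 transcripts were called lower and 18.5% higher. The 17 members called in ctrl were all among the 34 called in KO, which is 17 of 17 of the first list and 17 of 34 of the second. By pathway, the members called lower in ctrl were 7 of 19 in glycolysis, 3 of 7 in the pentose phosphate pathway and 7 of 25 in the TCA group, and those in KO were 15, 5 and 14. The median log2 fold change in footprints was -0.27, -0.50 and -0.28 in ctrl, against 0.02 over all transcripts tested, and -0.53, -0.74 and -0.33 in KO, also against 0.02. Scaling changed this balance. With library sizes alone the median of all transcripts rose to 0.23 in ctrl and 0.26 in KO, and the members called changed to 12 lower with 2 higher (Idh1 and Pdhb) in ctrl, and in KO to 22 lower with 6 higher (Hk2, Idh1, Mdh1, Pdhb, Pfkp and Sdha). Over all transcripts, 684 of 10693 were then called lower and 1691 higher in ctrl. In KO, 1532 of 10822 were then called lower and 3766 higher. The median of the members then lay 0.33 (ctrl) and 0.51 (KO) below that of all transcripts, as it did with TMM. Without ctrl Torin1 replicate 3, 10 members were called in ctrl, where 845 of 10699 transcripts were, against 1670 of 10693 in the main fit.

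**Figure D1:**
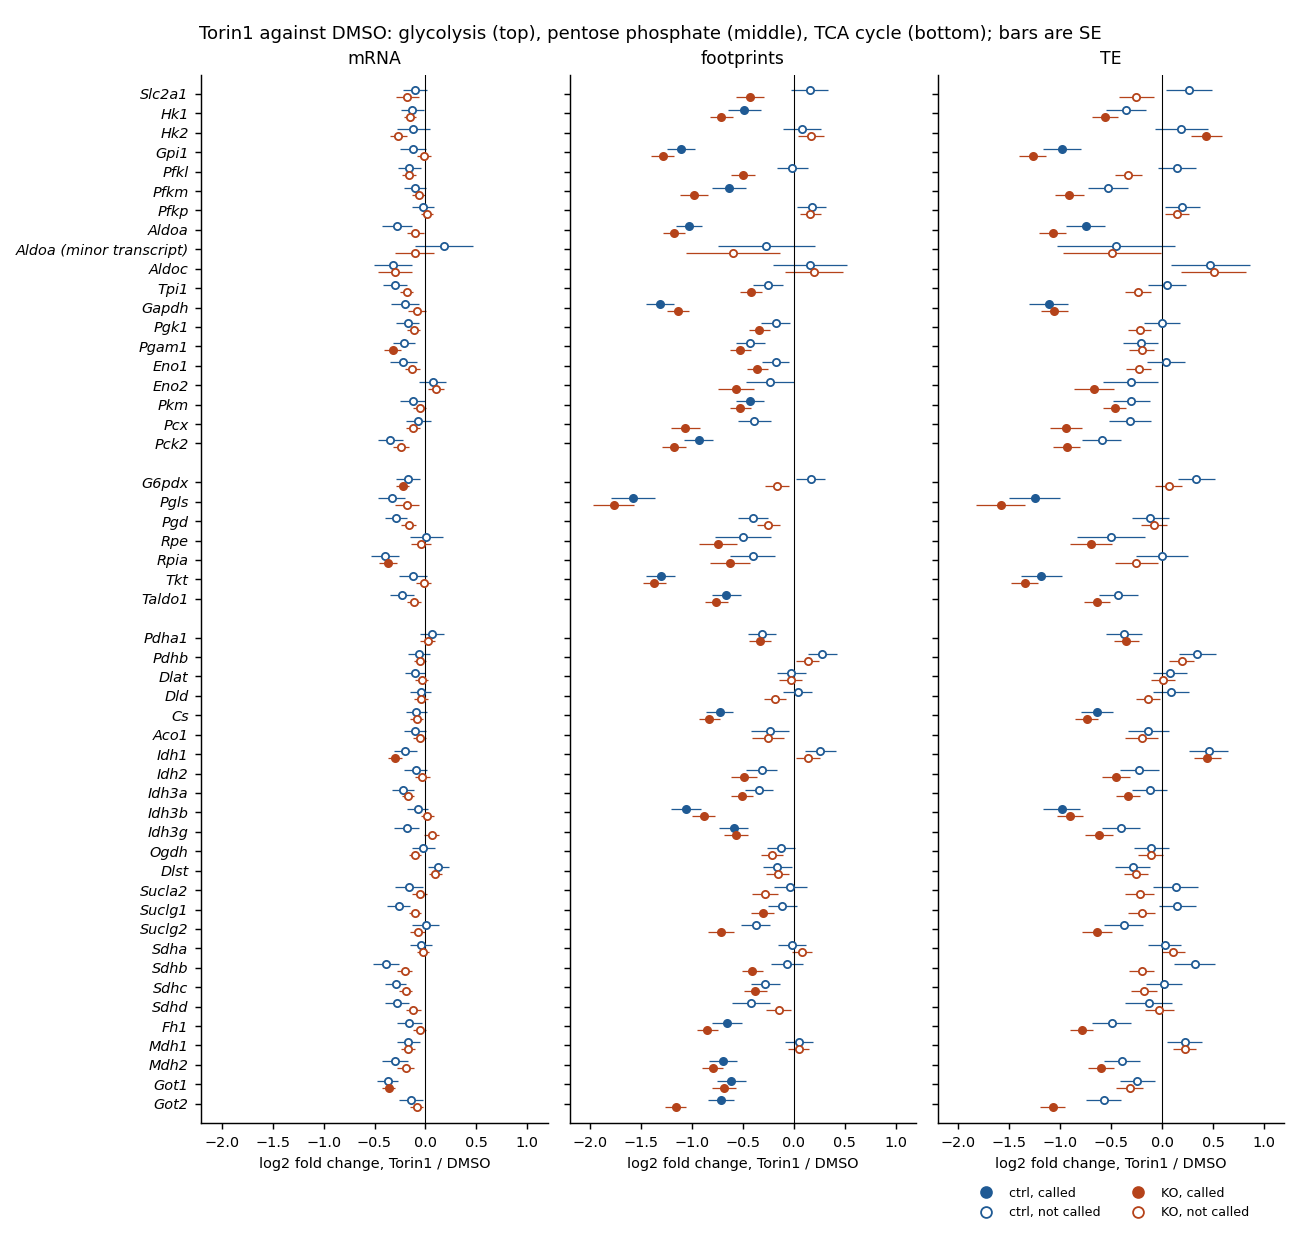
Log2 fold change of Torin1 against DMSO for each of the 51 member transcripts (rows), in mRNA, footprints and TE (panels), in ctrl (blue) and KO (orange), with SE as bars and filled points where called. mRNA changes lie between -0.40 and 0.18, while footprints reach -1.58 in ctrl and -1.77 in KO, both at Pgls.

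At the entry of glycolysis the transporter and Hk1 were among the members called lower, and Hk2 was not called. Slc2a1, the glucose transporter GLUT1, had 68.5 and 56.6 CPM of footprints in ctrl DMSO and 73.1, 79.1 and 64.1 in ctrl Torin1, which overlap. In KO the values were 75.9, 71.8 and 71.9 with DMSO and 49.4, 60.8 and 54.9 with Torin1, without overlap (log2 fold change -0.43 ± 0.14, adjusted p = 0.0136). The call in KO was lost with library sizes alone and without KO Torin1 replicate 1. Hexokinase traps glucose as a phosphate ester. Hk1, the form of most tissues, had 299.8 and 417 CPM in ctrl DMSO and 237, 242 and 274 in ctrl Torin1 (-0.48 ± 0.16, adjusted p = 0.0463), and 296, 349 and 307 in KO DMSO and 189.9, 214 and 185 in KO Torin1 (-0.71 ± 0.11, adjusted p = 5.60e-06). The groups do not overlap in either line, but the call in ctrl was lost with DESeq2 (adjusted p = 0.0765), with library sizes alone and without each of ctrl DMSO replicate 3 and ctrl Torin1 replicates 1, 2 and 3. Hk2, the inducible form, had 118 and 183 CPM in ctrl DMSO and 127, 159 and 164 in ctrl Torin1, then 102, 136 and 114 in KO DMSO and 126, 149 and 127 in KO Torin1. Its footprints overlapped between treatments in both lines and were not called (0.08 ± 0.19 in ctrl and 0.17 ± 0.13 in KO).

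**Figure D2:**
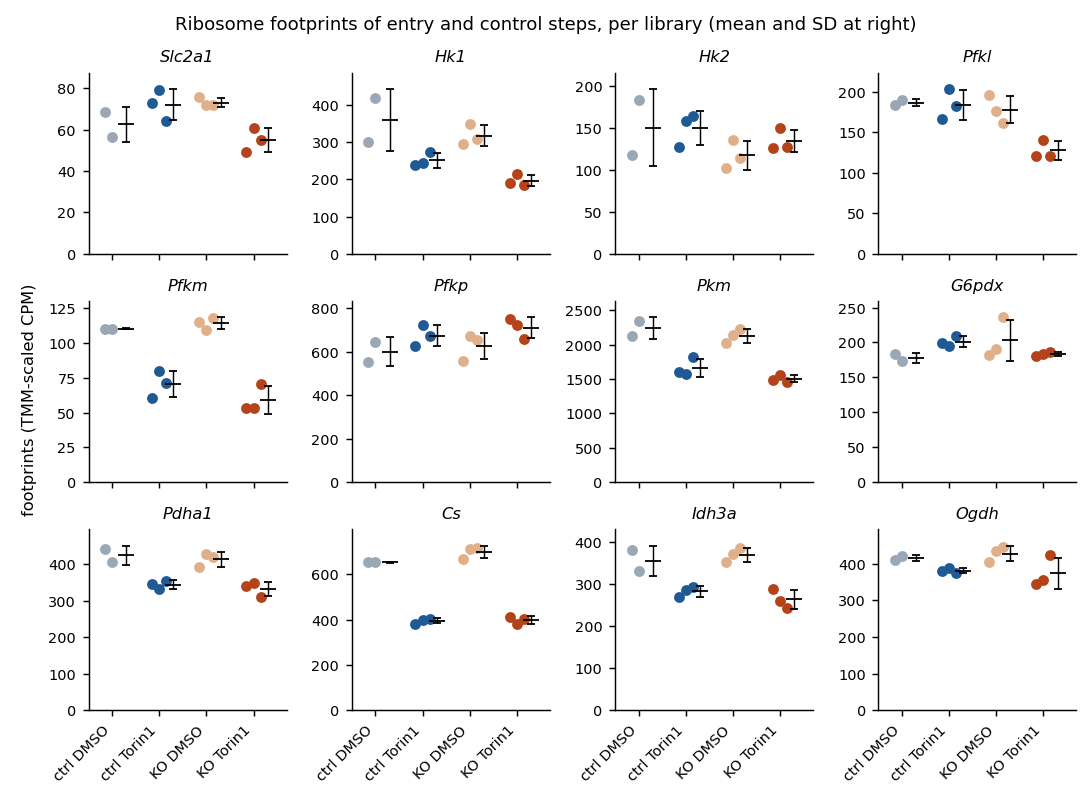
Footprints in TMM-scaled CPM (vertical axes, from 0) of 12 enzymes at entry and control steps in each ribo-seq library of the 4 conditions (points), with mean and SD to the right of the points. Cs, Hk1, Idh3a, Pdha1, Pfkm and Pkm are lower with Torin1 in both lines without overlap, while Hk2 and Pfkp overlap in both. The share of all transcripts without overlap is not given here.

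Gpi1, which isomerizes the hexose phosphates, went from 542 and 506 CPM of footprints in ctrl DMSO to 242, 229 and 260.5 in ctrl Torin1 (-1.11 ± 0.14, adjusted p = 1.21e-05), and from 482, 556 and 632 to 225, 221 and 248 in KO (-1.29 ± 0.11, adjusted p = 5.78e-11). Phosphofructokinase, the main control step, is built from the subunits Pfkl, Pfkm and Pfkp. The footprints of Pfkm were 110.5 and 110.0 CPM in ctrl DMSO and 60.8, 80.0 and 70.9 in ctrl Torin1, and 115, 109 and 118 in KO DMSO and 53.3, 53.2 and 70.3 in KO Torin1, lower in both lines (-0.63 ± 0.17 and -0.98 ± 0.14; adjusted p = 0.0153 and 6.36e-07). With DESeq2 the call of Pfkm in ctrl was lost (adjusted p = 0.0536), and it was also lost with library sizes alone and without ctrl DMSO replicate 1 or ctrl Torin1 replicate 3. Pfkl had 184 and 189 CPM in ctrl DMSO and 166, 203 and 182 in ctrl Torin1, which overlap, and 196, 177 and 161 in KO DMSO and 121, 141 and 121 in KO Torin1, where it was called lower (-0.50 ± 0.12, adjusted p = 0.00126), though not with library sizes alone. Pfkp, the most abundant subunit, had 554 and 647 CPM in ctrl DMSO and 627, 722 and 674 in ctrl Torin1, and 556, 671 and 653 in KO DMSO and 751, 724 and 659 in KO Torin1, and was not called in either line. Whether the subunits differ in response was not tested.

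Below the split into triose phosphates, Aldoa, Gapdh, Pkm and Pck2 were called lower in both lines. Aldoa fell from 1499 and 1501 CPM of footprints in ctrl DMSO to 719.9, 709.6 and 776 in ctrl Torin1, and from 1346, 1446 and 1352 to 549, 609 and 704 in KO (-1.03 ± 0.13 and -1.18 ± 0.11; adjusted p = 1.61e-05 and 1.14e-10). Aldoc, with 6 to 37 footprints per library (0.16 ± 0.36 in ctrl and 0.20 ± 0.28 in KO), and the minor transcript of Aldoa, with 3 to 29 (-0.27 ± 0.47 and -0.60 ± 0.46), were not called. Gapdh, which makes the first NADH of the pathway, went from 1675 and 1679 CPM to 747, 625 and 649 in ctrl and from 1389, 1485 and 1669.7 to 761, 687 and 640.0 in KO. It had the smallest adjusted p of all members in ctrl (-1.32 ± 0.14, adjusted p = 1.11e-06), and -1.14 ± 0.11 in KO (adjusted p = 1.97e-10). Pkm, the pyruvate kinase of proliferating cells, had 2130.2 and 2351 CPM in ctrl DMSO and 1603, 1570.1 and 1814 in ctrl Torin1, and 2026, 2139.8 and 2229.7 in KO DMSO and 1493, 1556 and 1459 in KO Torin1. It was called in both lines (-0.43 ± 0.14 and -0.52 ± 0.10; adjusted p = 0.0385 and 7.70e-05). The call in ctrl was lost with library sizes alone and without ctrl DMSO replicate 3 or any of the ctrl Torin1 replicates 1, 2 and 3. Pck2, which makes phosphoenolpyruvate in mitochondria, was called lower in ctrl (-0.93 ± 0.14) and in KO (-1.18 ± 0.12). In KO the remaining calls were Pcx (-1.06), the pyruvate carboxylase, Eno2 (-0.56), the neuronal enolase, Pgam1 (-0.53), Tpi1 (-0.42), Eno1 (-0.36) and Pgk1 (-0.34), and of these Tpi1, Eno1, Eno2 and Pgk1 were not called with library sizes alone. Eno2 overlapped between treatments in KO and also lost its call without KO DMSO replicate 2, KO Torin1 replicate 1 or KO Torin1 replicate 2. With the replicate number as a block, Pgam1 was also called in ctrl (-0.40 ± 0.13, adjusted p = 0.0126).

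Of the pentose phosphate enzymes, 3 were called lower in both lines and 2 more in KO. G6pdx, glucose phosphate dehydrogenase and the entry to the oxidative branch, had 183 and 173 CPM of footprints in ctrl DMSO and 199, 194 and 209 in ctrl Torin1, and 182, 191 and 236 in KO DMSO and 181, 183 and 187 in KO Torin1, and was not called in either line (0.17 ± 0.14 and -0.16 ± 0.12), though all ctrl Torin1 libraries lay above those of ctrl DMSO. Pgd, the second NADPH-forming enzyme, was at -0.40 ± 0.15 and -0.25 ± 0.11, not called without the replicate block and called with it in ctrl (-0.41 ± 0.14, adjusted p = 0.0268) and in KO (-0.25 ± 0.10, adjusted p = 0.0390). Pgls, the lactonase between them, had the largest decrease among the members. Its footprints went from 63.5 and 74.4 CPM to 23.9, 25.0 and 18.2 in ctrl and from 43.9, 45.0 and 51.0 to 12.3, 11 and 18.9 in KO (-1.58 ± 0.21 and -1.77 ± 0.20; adjusted p = 3.37e-05 and 9.65e-09). In the non-oxidative branch, Tkt, the transketolase, went from 466 and 523 CPM to 187, 213 and 195 in ctrl and from 487, 530.1 and 592 to 228, 192 and 211 in KO, where it had the smallest adjusted p of all members (-1.31 ± 0.14 and -1.37 ± 0.11; adjusted p = 2.00e-06 and 1.02e-11). The transaldolase Taldo1 was called in ctrl (-0.66, not without ctrl Torin1 replicate 3) and in KO (-0.76). The ribose phosphate isomerase Rpia (-0.62) and the epimerase Rpe (-0.74) were called in KO, Rpia not with library sizes alone or without KO Torin1 replicate 3.

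In the TCA group, the 7 members called lower in both lines were Cs, Idh3b, Idh3g, Fh1, Mdh2, Got1 and Got2. Pdha1, the catalytic subunit of pyruvate dehydrogenase, had 442 and 404 CPM of footprints in ctrl DMSO and 346, 330.3 and 353 in ctrl Torin1, and 390.3, 428 and 418 in KO DMSO and 338, 347 and 310.3 in KO Torin1. Both pairs are without overlap, and the KO pair was called (-0.33 ± 0.11, adjusted p = 0.0128), but not with library sizes alone or without KO DMSO replicate 2 or KO Torin1 replicate 3. The other subunits Pdhb, Dlat and Dld were between -0.18 and 0.28 over both lines and not called, with Pdhb above ctrl DMSO in all ctrl Torin1 libraries. Citrate synthase, Cs, which opens the cycle, went from 652 and 654 CPM to 381, 400.2 and 401 in ctrl and from 666, 711 and 717 to 411, 380.3 and 403 in KO (-0.73 ± 0.13 and -0.83 ± 0.10; adjusted p = 0.000885 and 8.94e-08). NAD-linked isocitrate dehydrogenase has the subunits Idh3a, Idh3b and Idh3g. Idh3a had 380.0 and 330.0 CPM in ctrl DMSO and 268, 286 and 293 in ctrl Torin1, not called, and 352, 369.8 and 386 in KO DMSO and 287, 259 and 243 in KO Torin1, called lower (-0.51 ± 0.11, adjusted p = 0.000376). Idh3b went from 352 and 337 CPM to 164, 186 and 144 in ctrl (-1.06 ± 0.15, adjusted p = 4.59e-05) and was at -0.89 ± 0.12 in KO, and Idh3g was at -0.59 and -0.56, called in both lines, in ctrl not with library sizes alone or without ctrl DMSO replicate 1 or ctrl Torin1 replicate 3. Ogdh, the oxoglutarate dehydrogenase, had 411 and 422 CPM in ctrl DMSO and 379.9, 389 and 375 in ctrl Torin1, and 405, 434 and 446 in KO DMSO and 345, 355 and 423 in KO Torin1, and was not called in either line.

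Of the later steps of the cycle and the malate-aspartate enzymes, Got2, Fh1, Mdh2 and Got1 were called lower in both lines. Got2, the mitochondrial aspartate aminotransferase, went from 1885 and 1788 CPM of footprints to 1159.9, 1070.0 and 1129 in ctrl and from 1846, 1968 and 1775 to 739, 861 and 935 in KO (-0.71 ± 0.13 and -1.16 ± 0.11; adjusted p = 0.000876 and 1.21e-10). Fumarase (Fh1, -0.66 and -0.85), mitochondrial malate dehydrogenase (Mdh2, -0.69 and -0.80) and the cytosolic aminotransferase (Got1, -0.61 and -0.68) are the others. In ctrl Fh1 lost its call without ctrl DMSO replicate 1 or ctrl Torin1 replicate 3, and Got1 with library sizes alone or without ctrl Torin1 replicate 3. In KO the succinyl-CoA ligase subunits Suclg2 (-0.71) and Suclg1 (-0.31), the succinate dehydrogenase subunits Sdhb (-0.41) and Sdhc (-0.38) and the NADP-linked Idh2 (-0.49) were called too. Of these only Suclg2 kept its call with library sizes alone, Suclg1 overlapped between treatments and lost its call in 6 of 11 alternatives, and Sdhc lost it also without KO DMSO replicate 1 or KO Torin1 replicate 2. Under the block, Suclg2 was also called in ctrl (-0.42 ± 0.15, adjusted p = 0.0367) and Sucla2 in KO (-0.29 ± 0.12, adjusted p = 0.0296). In all, 17 members were not called in footprints in either line, 4 in glycolysis, 2 in the pentose phosphate pathway and 11 in the TCA group. Cytosolic malate dehydrogenase (Mdh1, 0.05 and 0.05), Sdha (-0.02 and 0.08) and cytosolic Idh1 (0.26 and 0.14) were among them.

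Few of the mRNAs were called. In ctrl, 0 of 51 members were called in mRNA by edgeR's test (2.73% of 10958 transcripts were called in either direction). At an unadjusted p under 0.05 there were 11 members, and 2516 of the 10958 transcripts. DESeq2 called 1 member, Got1 (-0.37 ± 0.12, adjusted p = 0.0383), where 723 of 10953 transcripts were called. Got1 was called as well with the replicate block (-0.37 ± 0.12, adjusted p = 0.0433). With all 4 conditions in a single fit 8 members were called, where 1221 of 11073 transcripts were. Without ctrl DMSO replicate 3, 4 members were called, where 1465 of 10988 transcripts were. In KO, 5 members were called lower and 0 higher, where 3.74% of 11004 transcripts were called lower and 6.23% higher. Got1 mRNA went from 172, 180.1 and 165 CPM in KO DMSO to 130.4, 134 and 136 in KO Torin1 (-0.36 ± 0.07, adjusted p = 0.00562), and this call held in all 11 alternatives. Idh1 mRNA went from 104, 97.2 and 102 to 81.9, 80.2 and 83.4 CPM (-0.30 ± 0.07, adjusted p = 0.0175) and Pgam1 mRNA from 213, 191 and 183 to 169.8, 154 and 144 CPM (-0.32 ± 0.08, adjusted p = 0.0284). Rpia (-0.37) and G6pdx (-0.22) were the others. None of the 5 overlaps between treatments, but without KO DMSO replicate 1, KO Torin1 replicate 2 or KO Torin1 replicate 3 Got1 alone stayed called, and without KO Torin1 replicate 1 it stayed with Pgam1. The block added Hk2 (-0.26 ± 0.08, adjusted p = 0.0273) and Pck2 (-0.24 ± 0.07, adjusted p = 0.0283), and DESeq2 called these and Sdhc (-0.20 ± 0.07, adjusted p = 0.0497). The group medians in mRNA were -0.13 (glycolysis), -0.23 (pentose phosphate) and -0.14 (TCA group) in ctrl and -0.12, -0.17 and -0.07 in KO, against 0.0036 and -0.0045 over all transcripts.

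TE set the footprints against the mRNA. In ctrl, 7 members were called lower in TE and 0 higher, where 4.29% of 10432 transcripts were called lower and 0.383% higher, and in KO 23 lower and 2 higher, where 17.8% of 10535 were called lower and 10.6% higher. The 7 in ctrl are 7 of 7 of that list and 7 of 23 of the KO list. The lower calls in KO were 9 of 19 in glycolysis, 4 of 7 in the pentose phosphate pathway and 10 of 25 in the TCA group. The median log2 change in TE was -0.30, -0.43 and -0.13 in ctrl and -0.46, -0.64 and -0.22 in KO, against -0.01 over all transcripts in both. With library sizes alone the median of the TCA group was 0.04 in ctrl and 0.03 in KO, its sign turned, while that of all transcripts rose to 0.16 and 0.24, and the calls in KO became 17 lower and 6 higher (Hk2, Idh1, Mdh1, Pdhb, Pfkp and Sdha). Over all transcripts, 1192 of 10535 were then called lower and 2700 higher in KO. Leaving out RNA-seq ctrl DMSO replicate 2, in which several glycolytic mRNAs were above the other ctrl DMSO libraries, raised the calls in ctrl from 7 to 14. The calls over all transcripts rose with it, from 488 of 10432 to 820 of 10449.

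The members whose TE fell in both lines were Gpi1, Gapdh, Aldoa, Pgls, Tkt, Cs and Idh3b, whose start windows are printed above except that of Aldoa. The TE of Tkt was 0.609 and 0.611 in ctrl DMSO and 0.223, 0.269 and 0.226 in ctrl Torin1 (-1.19 ± 0.20, adjusted p = 0.000480), and 0.667, 0.626 and 0.815 in KO DMSO and 0.289, 0.259 and 0.286 in KO Torin1 (-1.35 ± 0.13, adjusted p = 1.44e-08). That of Gapdh was 32.5 and 27.6 in ctrl DMSO and 14.4, 11.9 and 11.7 in ctrl Torin1 (-1.11 ± 0.19, adjusted p = 0.000549). That of Idh3b was 0.888 and 0.945 in ctrl DMSO and 0.433, 0.508 and 0.406 in ctrl Torin1 (-0.99 ± 0.18, adjusted p = 0.00118). For these 3 the treatments do not overlap in either line. Gpi1 was at 0.470, 0.478 and 0.621 in KO DMSO and 0.214, 0.214 and 0.230 in KO Torin1 (-1.27 ± 0.13, adjusted p = 5.17e-08), and Got2 at 1.50, 1.54 and 1.48 in KO DMSO and 0.597, 0.782 and 0.820 in KO Torin1 (-1.07 ± 0.12, adjusted p = 2.75e-07). Pgls (-1.25), Aldoa (-0.75) and Cs (-0.64) complete the calls in ctrl, and DESeq2 called Got2 as well (-0.56 ± 0.18, adjusted p = 0.0277). With the replicate block the calls of Aldoa (-0.74 ± 0.22, adjusted p = 0.0520) and Cs (-0.65 ± 0.20, adjusted p = 0.0532) in ctrl were lost. Both calls were also lost without ribo-seq ctrl DMSO replicate 1, without ribo-seq ctrl Torin1 replicate 2 and without RNA-seq ctrl Torin1 replicate 1 or 3, that of Aldoa also without ribo-seq ctrl DMSO replicate 3, ribo-seq ctrl Torin1 replicate 1 or RNA-seq ctrl DMSO replicate 1, and that of Cs with library sizes alone.

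Isozymes and subunits of the same reaction are set side by side here, and the differences between them were not tested. In KO, Hk1 went from 0.645, 0.729 and 0.686 to 0.444, 0.538 and 0.443 in TE and was called lower (-0.56 ± 0.12, adjusted p = 0.00120), while Hk2 went from 1.23, 1.87 and 1.43 to 1.90, 2.47 and 1.87 and was called higher (0.43 ± 0.15, adjusted p = 0.0331). The call of Hk2 was lost in 8 of 17 alternatives, namely with all 4 conditions in a single fit, without ribo-seq KO DMSO replicate 1 or 3, without ribo-seq KO Torin1 replicate 2, and without RNA-seq KO DMSO replicate 1 or 3 or KO Torin1 replicate 1 or 2. Cytosolic Idh1, which forms NADPH, went from 1.51, 1.90 and 1.67 to 2.63, 2.20 and 2.19 in KO (0.44 ± 0.13, adjusted p = 0.0131), and its call was lost only without ribo-seq KO Torin1 replicate 1. Its footprints were not called, at 0.14 ± 0.12, and its mRNA was called lower. Mitochondrial Idh2 was lower in TE (-0.45 ± 0.14, adjusted p = 0.0174), a call lost with library sizes alone and without ribo-seq KO DMSO replicate 2 or KO Torin1 replicate 1. Pfkm was lower (-0.91 ± 0.14, adjusted p = 2.70e-05), while Pfkp was at 0.15 ± 0.12 and not called. The other lower TE calls in KO were Pck2 (-0.94), Pcx (-0.94), Fh1 (-0.79), Rpe (-0.70), Eno2 (-0.67), Taldo1 (-0.64), Suclg2 (-0.64), Idh3g (-0.62), Mdh2 (-0.60), Pkm (-0.46), Pdha1 (-0.35) and Idh3a (-0.34), with Pgls (-1.59), Aldoa (-1.08), Gapdh (-1.06), Idh3b (-0.90) and Cs (-0.74). Of these, Rpe, Eno2, Pkm, Pdha1 and Idh3a lost their call with library sizes alone. Leaving out single libraries also ended the calls of Rpe (ribo-seq KO DMSO replicate 3), Eno2 (ribo-seq KO DMSO replicate 2, KO Torin1 replicate 1 or 2), Pdha1 (5 libraries) and Idh3a (7 libraries). Pfkl was called lower too with the replicate block (-0.33 ± 0.13, adjusted p = 0.0405) and with DESeq2 (-0.32 ± 0.13, adjusted p = 0.0483).

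**Figure D3:**
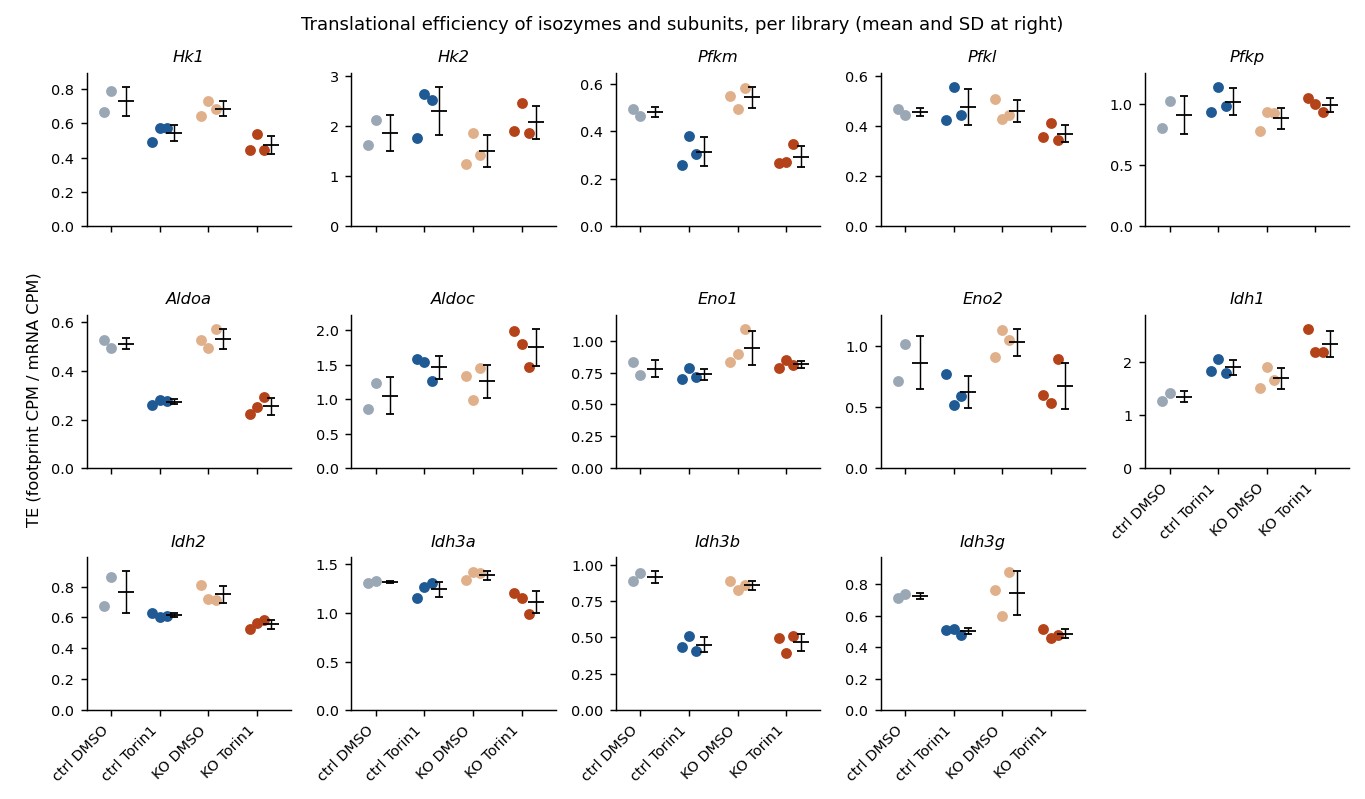
TE, the ratio of footprint to mRNA CPM (vertical axes, from 0), of isozymes and subunits of hexokinase, phosphofructokinase, aldolase, enolase and isocitrate dehydrogenase in each library with both assays (points), by condition, with mean and SD to the right. With Torin1 in KO, the libraries of Hk1, Pfkl, Pfkm, Aldoa, Eno2, Idh2, Idh3a, Idh3b and Idh3g lie below those with DMSO, and those of Hk2, Aldoc and Idh1 above. The lowest KO Torin1 and highest KO DMSO values are close for Hk2 (1.8721 and 1.8654) and for Aldoc (1.4603 and 1.4522). The share of all transcripts without overlap is not given here.

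Between the genotypes, members were called in footprints and TE with Torin1 and none with DMSO, and whether the 2 treatments differ in this is the interaction given further on. With DMSO, 0 of 51 members were called by edgeR's test in mRNA (0.0183% of 10924 transcripts were called), footprints (0.0279% of 10757) or TE (0% of 10475). At an unadjusted p under 0.05 there were 2, 3 and 1 members. Over all transcripts there were 646 of 10924 in mRNA and 850 of 10757 in footprints, and the number in TE is not given here. DESeq2 called 0 members in each. With the replicate block 866 of 10924 transcripts were called in mRNA in either direction. Of the 51 members, 4 were called, all lower in KO. They were Aldoa (-0.31 ± 0.09, adjusted p = 0.0206), Tpi1 (-0.31 ± 0.09, adjusted p = 0.0229), Eno1 (-0.30 ± 0.09, adjusted p = 0.0276) and Idh3g (-0.29 ± 0.10, adjusted p = 0.0455). Aldoa mRNA was at 2837, 3969.8 and 3032 CPM in ctrl DMSO and 2560.0, 2930.0 and 2361 in KO DMSO, which overlap, with ctrl replicate 2 above the rest.

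With Torin1, 7 members had fewer footprints in KO than in ctrl and 0 more, where 4.01% of 10792 transcripts were called lower and 2.02% higher. Of the 7, 4 are in the glycolysis group, which includes the branch enzyme Pcx, and 3 are in the TCA group. Pcx, which feeds pyruvate into the cycle as oxaloacetate, had 104, 84.7 and 88.0 CPM in ctrl Torin1 and 59.5, 51.7 and 54.9 in KO Torin1 (-0.73 ± 0.14, adjusted p = 0.000924). Sdhc, a membrane anchor of succinate dehydrogenase, had 361, 336 and 318 in ctrl Torin1 and 246, 219 and 244 in KO Torin1 (-0.52 ± 0.10, adjusted p = 0.00121), and the phosphofructokinase subunit Pfkl 166, 203 and 182 in ctrl Torin1 and 121, 141 and 121 in KO Torin1 (-0.53 ± 0.12, adjusted p = 0.00319). These 3 do not overlap between the genotypes and kept their call in all 11 alternatives. Tpi1 (-0.44), Suclg2 (-0.43), Got2 (-0.41) and Hk1 (-0.36) were called as well. Hk1 lost its call with DESeq2 (adjusted p = 0.0589), with all 4 conditions in a single fit and without ctrl Torin1 replicate 2 or 3 or any KO Torin1 replicate, and Suclg2 with DESeq2 (adjusted p = 0.0663), in that fit and without ctrl Torin1 replicate 2 or 3 or KO Torin1 replicate 1 or 2. Tpi1 lost it without KO Torin1 replicate 3, and Got2 without KO Torin1 replicate 1 or 2. Without KO Torin1 replicate 1, and without KO Torin1 replicate 2, 4 members were called, where 424 of 10859 and 343 of 10795 transcripts were. DESeq2 also called Pgam1 (-0.30 ± 0.10, adjusted p = 0.0434). The block added Pgam1 (-0.30 ± 0.09, adjusted p = 0.0249) and Sdhb (-0.28 ± 0.08, adjusted p = 0.0278). For the same members the footprints with DMSO were at -0.08 (Pcx), -0.44 (Sdhc), -0.07 (Pfkl), -0.29 (Tpi1), -0.11 (Suclg2), 0.02 (Got2) and -0.15 (Hk1), and none was called, though Sdhc, Tpi1 and Suclg2 were below ctrl in every KO library. The median over the members was -0.21 for glycolysis, -0.13 for the pentose phosphate pathway and -0.08 for the TCA group, against 0.00 over all transcripts.

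**Figure D4:**
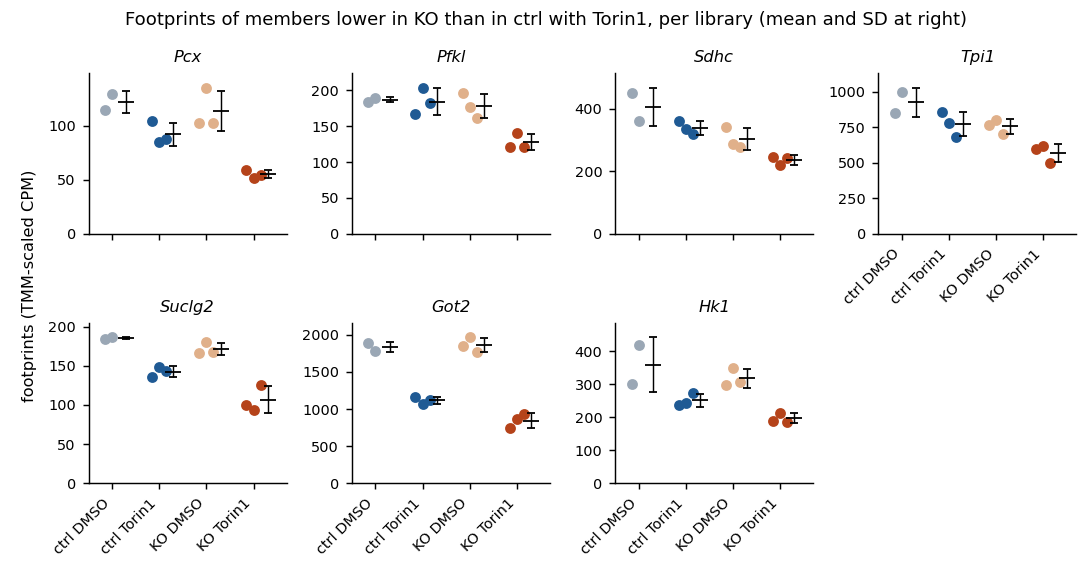
Footprints in TMM-scaled CPM (vertical axes, from 0) of the 7 members called lower in KO than in ctrl with Torin1, in each ribo-seq library of the 4 conditions (points), with mean and SD to the right. In all 7 the 3 KO Torin1 libraries lie below the 3 ctrl Torin1 libraries.

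In TE with Torin1, 2 members were called lower in KO, Pcx (-0.60 ± 0.14, adjusted p = 0.0146) and Sdhc (-0.43 ± 0.10, adjusted p = 0.0188), and 0 higher, where 2.26% of 10509 transcripts were called lower and 0.59% higher. The TE of Pcx was 0.458, 0.410 and 0.376 in ctrl Torin1 and 0.273, 0.259 and 0.275 in KO Torin1, and that of Sdhc 1.87, 1.84 and 1.64 in ctrl Torin1 and 1.34, 1.24 and 1.38 in KO Torin1, without overlap. With DMSO the TE of Sdhc was 1.88 and 1.70 in ctrl and 1.72, 1.35 and 1.36 in KO. That of Pcx was 0.575 and 0.544 in ctrl DMSO and 0.463, 0.565 and 0.485 in KO DMSO. Both overlap between the genotypes with DMSO. With Torin1, neither Pcx nor Sdhc was called with all 4 conditions in a single fit or without ribo-seq KO Torin1 replicate 2. The call of Sdhc was lost also without RNA-seq ctrl Torin1 replicate 2 and without RNA-seq KO Torin1 replicate 1. Pfkl was called too with the replicate block (-0.35 ± 0.09, adjusted p = 0.0209) and with DESeq2 (-0.36 ± 0.12, adjusted p = 0.0419). In mRNA with Torin1, 0 members were called by edgeR's test (1.96% of 11007 transcripts were called). At an unadjusted p under 0.05 there were 20 members, and 1954 of the 11007 transcripts. DESeq2 called 2 members, Eno1 (-0.22 ± 0.06, adjusted p = 0.00735) and Tpi1 (-0.21 ± 0.06, adjusted p = 0.0363), where 342 of 11007 transcripts were called. Without ctrl Torin1 replicate 2, 5 members were called, where 174 of 11027 transcripts were. Blocking on the replicate number gave 13 calls, 10 lower and 3 higher in KO, where 1041 of 11007 transcripts were called. The smallest adjusted p were those of Eno1 (-0.22 ± 0.04, adjusted p = 0.000518), Tpi1 (-0.20 ± 0.04, adjusted p = 0.00202) and G6pdx (-0.19 ± 0.04, adjusted p = 0.00680) among the lower, and Pgk1 (0.18 ± 0.04, adjusted p = 0.0108), Sdha (0.14 ± 0.04, adjusted p = 0.0235) and Pdha1 (0.17 ± 0.05, adjusted p = 0.0235) were the higher. The other lower calls were Mdh2, Pfkl, Pfkm, Aldoa, Pkm, Hk1 and Tkt, between -0.17 and -0.13.

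Whether the Torin1 response itself differed between KO and ctrl was tested as the interaction of genotype and treatment. In edgeR's test 0 of 51 members were called in mRNA, in footprints or in TE, where 0% of 11073, 0.113% of 10662 and 0% of 10443 transcripts were called. At an unadjusted p under 0.05 there were 0, 4 and 4 members, and in mRNA 108 of 11073 transcripts. The numbers over all transcripts in footprints and TE are not given here, so these counts are a description only. DESeq2 and the replicate block called 0 members in each. The 4 in footprints were Pcx (-0.66 ± 0.22, adjusted p = 0.349), Slc2a1 (-0.56 ± 0.22, adjusted p = 0.560), Pfkl (-0.47 ± 0.19, adjusted p = 0.576) and Got2 (-0.43 ± 0.17, adjusted p = 0.549). The 4 in TE were Pcx (-0.59), Pfkl (-0.45), Sdhb (-0.48) and Got2 (-0.47). The median difference in response (KO minus ctrl, log2) was -0.16 for glycolysis, -0.17 for the pentose phosphate pathway and -0.08 for the TCA group in footprints, against -0.02 over all transcripts. In TE it was -0.23, -0.18 and -0.12, against 0.00, and in mRNA 0.03, 0.10 and 0.05, against -0.01. The larger number of members called with Torin1 in KO than in ctrl is not shown by this test to be a difference in response. The ctrl footprints rest on 2 DMSO libraries and those in KO on 3, and the part of this in the numbers called was not tested.

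Summed over the members, the pathways took a smaller share of the footprints with Torin1. Glycolysis held 1.05% and 1.10% of footprints in the ctrl DMSO libraries and 0.876% to 0.889% with Torin1, and 0.982% to 1.06% in KO DMSO and 0.790% to 0.818% in KO Torin1. The pentose phosphate enzymes held 0.120% and 0.131% in ctrl DMSO, 0.0898% to 0.0926% in ctrl Torin1, 0.124% to 0.133% in KO DMSO and 0.0873% to 0.0902% in KO Torin1. The TCA group held 0.987% and 1.07%, 0.918% to 0.977%, 1.01% to 1.02% and 0.852% to 0.885%. None of the 3 overlaps between treatments in either line. In mRNA the glycolytic share was 1.11% to 1.33% in ctrl DMSO and 1.04% to 1.13% in ctrl Torin1, which overlap, and 1.02% to 1.13% and 1.01% to 1.04% in KO, which also overlap. The highest value, 1.33%, is that of ctrl DMSO replicate 2. The TCA share in mRNA was 0.976% to 1.04% and 0.910% to 0.959% in ctrl and 0.944% to 0.985% and 0.902% to 0.918% in KO, without overlap.

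**Figure D5:**
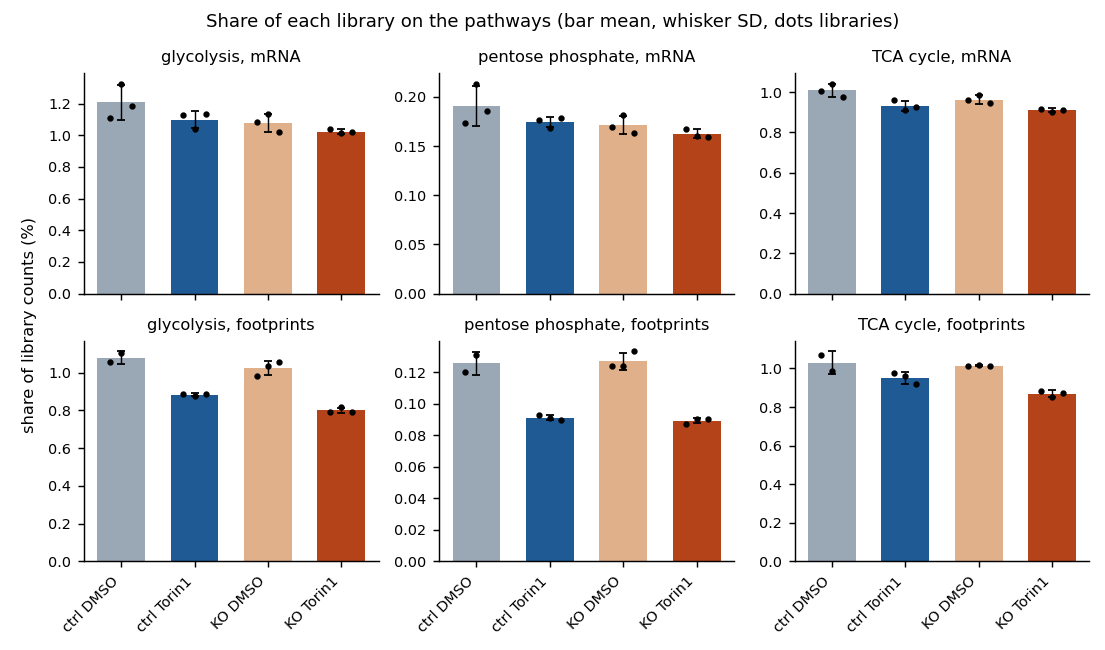
Share of all counts of a library, in percent (vertical axes, from 0), that fell on the member transcripts of each pathway, in mRNA (top) and footprints (bottom), by condition, with the mean as bar, the SD as whisker and the libraries as dots. The footprint shares with Torin1 lie below those with DMSO in both lines for all 3 pathways.

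Other genes of these pathways were taken from a list of 56 enzymes and carriers and 13 regulators and sensors. Of the 56, 34 were tested in footprints, with 6 called lower and 1 higher with Torin1 in ctrl (over all transcripts 9.93% lower and 5.69% higher). In KO there were 12 lower calls and 1 higher (over all transcripts 22.1% and 18.5%). Glud1, which links glutamate to the cycle, was lowest in adjusted p in both lines (-1.12 ± 0.15, adjusted p = 3.42e-05 in ctrl and -1.49 ± 0.13, adjusted p = 2.24e-11 in KO). The pyruvate carrier subunit Mpc1 was at -0.73 ± 0.18 and -0.73 ± 0.13, the transporter Slc2a8 at -1.53 ± 0.42 and -1.63 ± 0.36, the monocarboxylate exporter Slc16a3 at -0.48 ± 0.14 and -0.88 ± 0.11, and the ADP-dependent glucokinase Adpgk at -0.55 ± 0.16 and -1.04 ± 0.14, all called in both lines. The single higher call was the pyruvate dehydrogenase phosphatase Pdp1 (1.20 ± 0.25 and 1.12 ± 0.17), whose mRNA was higher as well (0.74 ± 0.15 and 0.75 ± 0.10). In TE 1 of 32 was called lower in ctrl, Glud1, where 4.29% of transcripts were, and 11 lower and 1 higher, Bpgm, in KO, where 17.8% and 10.6% were. Between genotypes with Torin1, Slc16a3 (-0.46 ± 0.10, adjusted p = 0.00366) and Mpc2 (-0.59 ± 0.17, adjusted p = 0.0258) were called lower in KO in footprints, 2 of 34 against 4.01% of transcripts.

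Of the 13 regulators and sensors 7 were tested. In ctrl mRNA, Torin1 gave 1 lower and 2 higher calls (2.73% of all transcripts in either direction), and KO mRNA 2 of each (3.74% of all transcripts lower, 6.23% higher). Footprints gave 1 lower and 3 higher calls in ctrl (9.93% and 5.69% of all transcripts). In KO they gave 2 lower calls and 3 higher (22.1% and 18.5%). Txnip, an inhibitor of glucose uptake, rose with Torin1 in mRNA (1.52 ± 0.15 in ctrl and 1.68 ± 0.12 in KO) and in footprints (2.04 ± 0.20 and 2.63 ± 0.14). Mycn, the MYC family member of neuroblastoma, rose too (mRNA 1.37 ± 0.13 and 1.30 ± 0.12, footprints 1.47 ± 0.21 and 1.30 ± 0.15), and Ddit4, an inhibitor upstream of mTOR, fell (mRNA -1.90 ± 0.12 and -1.94 ± 0.10, footprints -1.52 ± 0.20 and -1.33 ± 0.15). Hif1a, a transcription factor of many glycolytic genes, was called higher in footprints (0.49 ± 0.16 and 0.59 ± 0.12) and not in mRNA. Egln1, an oxygen-sensing prolyl hydroxylase that marks Hif1a for degradation, was called lower in KO in mRNA (-0.35 ± 0.08, adjusted p = 0.0156) and in footprints (-0.90 ± 0.25, adjusted p = 0.00402). In TE, 0 were called in ctrl and 3 in KO, all higher, Txnip (0.95 ± 0.18), Hif1a (0.65 ± 0.14) and Ddit4 (0.62 ± 0.19), where 10.6% of transcripts were called higher. With Torin1, Hif1a footprints were higher in KO than in ctrl (0.50 ± 0.11, adjusted p = 0.00414), as was Hif1a TE (0.46 ± 0.12, adjusted p = 0.0358), and Txnip footprints (0.66 ± 0.12, adjusted p = 0.000460), where 2.02% of transcripts were called higher in footprints and 0.59% in TE. Egln1 TE was lower in KO than in ctrl (-0.91 ± 0.24, adjusted p = 0.0340), where 2.26% were called lower.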

How the data were processed

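Ribosome profiling and RNA-seq were taken from N2a cells in 4 conditions, with 12 RNA-seq and 11 ribo-seq libraries in 8 count tables, each of which holds a pair of conditions. According to the labels and the methods, the authors trimmed reads with cutadapt, aligned them to mm10 with HISAT2, removed reads of rRNA, tRNA and pseudogenes, and aligned the rest with Bowtie2 to canonical transcripts (versions not given in the sources used here). The deposited counts are RNA-seq reads overlapping the CDS, from a stranded kit, and P-sites in the CDS. The authors' fold changes, CPM, p-values and TE tables were not used.

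Transcripts were kept where every library of at least 1 condition had CPM over 1, and were tested with edgeR 4.0.16 (R 4.3.3), TMM scaling, the quasi-likelihood test (two-sided) and Benjamini-Hochberg adjustment over all transcripts, at 0.05. TE was tested as the interaction of assay and condition, with each assay scaled separately, and the difference in Torin1 response as the interaction of genotype and treatment over all 4 conditions. The tests were tried on simulated data. Alternatives were library sizes alone, DESeq2 1.42.0, no CPM filter, a replicate block, all 4 conditions in a single fit, and leaving out each library. Values in every library are given for entry and control steps and for up to 3 called members per direction with the smallest adjusted p, and other called members by fold change. A few further members with full values, and the changes under alternatives, were named after their values were seen. The members and gene lists were chosen with earlier results of these data known.

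The labels give a replicate number as a passage of the cells. The main tests were unpaired and did not use this number. Only the replicate block and the TE of single libraries paired libraries with the same number. Such libraries are not stated to share a passage across conditions. Deviations from the condition means correlated between libraries of the same number at r = 0.0398 to 0.737 in RNA-seq and -0.0395 to 0.141 in ribo-seq, and between libraries of different numbers at -0.589 to 0.431 and -0.141 to 0.117. The RNA-seq table of both genotypes with DMSO repeats a replicate number in its header, so fits that need the number took the same libraries from the tables of Torin1 against DMSO. P-values measure the spread between these passages of 1 ctrl and 1 KO population. Ribo-seq totals of 669010 to 5284909 counts limit the precision for members with few footprints.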

Additional observations from a re-analysis of the deposited data

How the results depend on the processing

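Member counts are given out of 51. The calls over all transcripts moved with the settings too. In mRNA with Torin1 in ctrl, 299 of 10958 transcripts were called in the main fit and 1221 of 11073 in the single fit of all 4 conditions. Between genotypes, the block took them from 2 to 866 of 10924 in DMSO and from 216 to 1041 of 11007 with Torin1. In mRNA, the 0 calls with Torin1 in ctrl became 1 with DESeq2, 1 with the replicate block and 8 with all 4 conditions in a single fit, and ranged from 0 to 4 with a library left out. Over all transcripts there were 723 calls with DESeq2 and 1328 with the block, and 114 to 1465 with a library left out. The 5 in KO became 8 with DESeq2 and 2 in the single fit, and ranged from 1 to 7. Over all transcripts the 1097 calls in KO became 1453 with DESeq2 and 558 in the single fit, and ranged from 438 to 1465. Between genotypes, 0 became 4 with the block in DMSO. With Torin1 the 0 became 2 with DESeq2 and 13 with the block, and ranged from 0 to 5. Over all transcripts the 216 calls with Torin1 became 342 with DESeq2, and ranged from 6 to 174 with a library left out. In footprints, the 17 calls in ctrl ranged from 10 to 19 with a library left out, and the 7 between genotypes with Torin1 from 4 to 7. In TE, the 7 calls in ctrl ranged from 5 to 14 with any library but those of ctrl DMSO ribo-seq left out. Over all transcripts the 488 calls then ranged from 329 to 820. The 2 between genotypes with Torin1 became 0 in the single fit and ranged from 0 to 3. Over all transcripts those 299 calls became 73 in the single fit and ranged from 178 to 312. The cause of these changes was not tested.

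The replicate block (the replicate number as a covariate, nested within assay for TE) gave 20 instead of 17 calls in footprints with Torin1 in ctrl and 36 instead of 34 in KO. Over all transcripts it gave 1787 instead of 1670 calls in ctrl and 4759 instead of 4390 in KO. Beside the members named with it above it changed no other call. No call reversed its sign under any alternative.

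Aldoc and the minor Aldoa transcript have the lowest counts, and with 2 ctrl DMSO ribo-seq libraries, 1 of them the shallowest, the ctrl comparisons of footprints and TE are the least precise. Footprints and TE without a ctrl DMSO ribo-seq library rest on a single one there, which is assumed to vary like the others.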
